A study of Mus musculus with 4 samples.

Results

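The nuclei described here are the cardiomyocyte nuclei of 2 mouse heart libraries, 1 from hearts with a homozygous Rbm20 mutation and 1 from hearts with a heterozygous one, and the question is how their transcripts differed across genes. A nucleus was taken when it had at least 300 genes, at most 5% mitochondrial transcripts, at least 2.5% of its unique molecular identifiers (UMIs, the counted RNA molecules) from Ttn, Ryr2, Myh6 and Rbm20 together, and at most 3 UMIs each of an endothelial set (Flt1, Ptprb and Cyyr1) and a fibroblast set (Pdgfra, Dcn, Col1a2 and Abca8a). The rule took 5452 nuclei of the 45992 barcodes of the study, 2490 of 9734 barcodes in the heterozygous library and 2962 of 11611 in the homozygous library. The same rule took 3178 nuclei in the wild-type library and 3357 in the corrected library, whose values are given beside the others for reference.

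The study measured single-nucleus RNA in hearts of C57BL/6 mice at 6 months of age with the 10x Genomics 3′ v3 assay. There were 4 groups with 1 library each: wild type (WT), RBM20 het (heterozygous), RBM20 homo (homozygous), and RBM20 homo with correction (corrected). The corrected library alone had UMIs of the 2 added features ABE_C and ABE_N. Each library pooled nuclei of 3 hearts. The labels name no base or residue for the mutation and no dose or vehicle for the correction, and the protocol text also mentions CD45+ immune cells, although the samples are labelled as total cardiac nuclei. Each genotype had 1 library only, which leaves the spread between hearts unmeasured and allows no significance test. The differences are therefore between libraries, and brackets hold 95% intervals that cover counting error only.

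RBM20 is a splicing regulator of heart and skeletal muscle that binds intronic RNA and represses the inclusion of exons of titin (Ttn) and of genes of calcium handling and the sarcomere. Mutations in its arginine- and serine-rich stretch cause dilated cardiomyopathy in people, with RBM20 protein leaving the nucleus and gathering in cytoplasmic granules. Overloaded or failing ventricular muscle is known for a return of fetal and stress genes, such as those of the natriuretic peptides, and for lower levels of genes of repolarizing potassium currents and fatty acid oxidation.

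The transcripts of the selected nuclei were summed per library and scaled to CPM (counts per 1e6 UMIs), leaving out mitochondrial genes and Malat1. The scaled totals were between 13549628 and 15054865 UMIs per library, so 3 UMIs, read here as the detection limit, correspond to about 0.199 to 0.221 CPM. Where 4 levels follow each other without names, they stand for WT, heterozygous, homozygous and corrected nuclei. Median depth was 5694 UMIs per heterozygous and 5936.5 per homozygous nucleus, beside 4853 in WT and 4546 in corrected nuclei. The libraries differed in 2 measures of nuclear RNA. Malat1, an abundant nuclear noncoding RNA, took 23.7% of the UMIs of the selected homozygous nuclei and 14.3% to 15.2% of those of the other 3 libraries, and the median mitochondrial share was 0.0920% in homozygous and 0.171% to 0.208% in the other nuclei. Their part in the differences below was not tested beyond the scaling named beside the counts. The selected nuclei were 25.9% of the filtered barcodes in the heterozygous library [25.0 to 26.8] and 25.7% in the homozygous library [24.9 to 26.5]. Of the barcodes, 32 were shared by both libraries, 2 of them among the selected nuclei.

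The label was checked against cardiomyocyte markers that the rule did not use. Tnnt2, cardiac troponin T, stood at 7718 CPM in WT, 6957 in heterozygous, 6229 in homozygous and 6969 in corrected nuclei, and at 435 CPM in endothelial-gene and 308 in fibroblast-gene nuclei of the homozygous library. After every nucleus was thinned to 1000 UMIs, Tnnt2 was found in 99.2% [98.8 to 99.5] of heterozygous and 97.3% [96.7 to 97.9] of homozygous nuclei. All 12 such markers were measured in both libraries, with a median log2 ratio of homozygous to heterozygous CPM of -0.07. Of the atrial markers, Myl7 had 0 UMIs in heterozygous and 1 in homozygous nuclei and Sln had 0 in all 4 libraries, while Myl4 stood at 7.76, 5.31, 11.9 and 7.57 CPM in WT, heterozygous, homozygous and corrected nuclei. Myl7 and Sln were thus at or near 0 in heterozygous and homozygous nuclei. Sln was also at 0 in endothelial-gene and fibroblast-gene nuclei, so it tells little. Myl4 was 2.24-fold [1.69 to 2.98] higher in homozygous than in heterozygous nuclei, and Nppa, described below, was also higher. Nuclei just inside the limit, with a share of 2.5% to 3%, numbered 121 in the heterozygous and 252 in the homozygous library, and those just outside, at 2% to 2.5%, numbered 53 and 106. Tnnt2 stood at 5326 and 5262 CPM just inside, and at 4637 and 4824 CPM just outside.

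**Figure D1:**
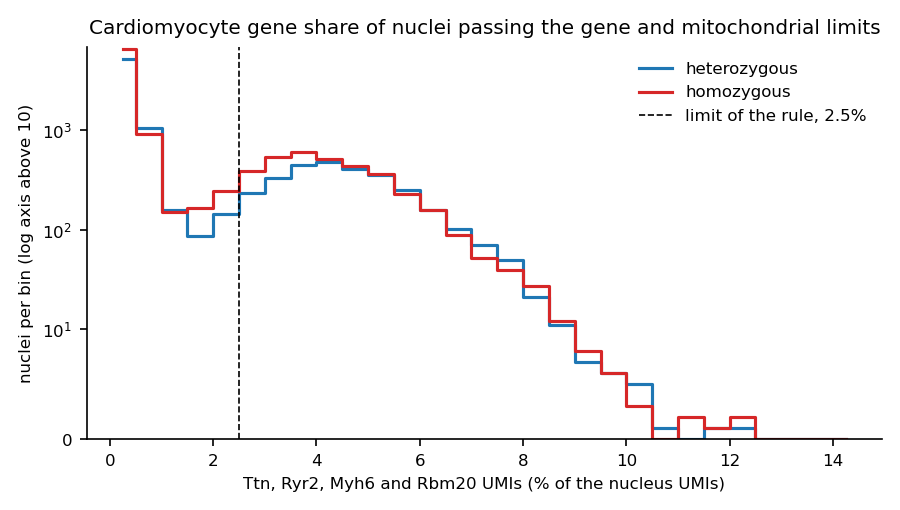
Number of nuclei (vertical axis, linear up to 10 and logarithmic above) by the percentage of their UMIs from Ttn, Ryr2, Myh6 and Rbm20 (horizontal axis, 0.5% bins up to 14.5%), among barcodes that met the limits of 300 genes and 5% mitochondrial UMIs and before the limits on endothelial and fibroblast UMIs. Both libraries show a low group, a dip between 1% and 2.5%, and a broad group above the dashed limit of 2.5%.

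Rbm20, the mutated gene (ENSMUSG00000043639, GRCm38 chr19:53677306-53867080, plus strand), was at 5237 CPM in WT, 5339 in heterozygous, 5001 in homozygous and 5436 in corrected nuclei. The homozygous level was 0.937 times the heterozygous level [0.927 to 0.946]. A 3′ tag does not read the mutated base, so this level checks no genotype, and the rule itself selected nuclei by Rbm20. The other genes of the rule are a description for the same reason. Ttn stood at 29232, 24822, 23189 and 25695 CPM in the order WT, heterozygous, homozygous and corrected, Myh6 at 13726, 12581, 11739 and 12986 CPM, and Ryr2, the calcium release channel, at 12579, 14012, 19229 and 15952 CPM. The log2 ratio of homozygous to heterozygous was -0.10 for Ttn, -0.10 for Myh6 and 0.46 for Ryr2.

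Across the transcriptome, 11582 genes had at least 100 UMIs in the heterozygous and homozygous nuclei together. A gene was called when its CPM differed at least 2-fold. Of these genes, 580 were at least 2-fold higher in homozygous nuclei, which is 5.01%, and 371 were at least 2-fold lower, which is 3.2%, so 8.21% were called in either direction. At least 5-fold differences were found for 68 genes that were higher and 35 that were lower. The median log2 ratio over all tested genes was 0.03. With Malat1 kept in the total, the median moved by -0.15 to -0.12 and the split turned to 426 higher and 561 lower genes. Log2 ratios below are on the scale without Malat1 and can be read against that shift. Counts of called members in the lists below can be read against the shares of 5.01% and 3.2%.

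The same comparison was made in nuclei of the same libraries that carried endothelial or fibroblast genes and less than 1% of the rule's cardiomyocyte transcripts. In endothelial-gene nuclei, 171 of 8621 genes were at least 2-fold higher in the homozygous library (1.98%) and 42 were lower (0.487%). In fibroblast-gene nuclei, the counts were 490 of 11984 (4.09%) higher and 242 (2.02%) lower. The summed UMIs behind these classes differ, so the percentages are given side by side only.

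**Figure D2:**
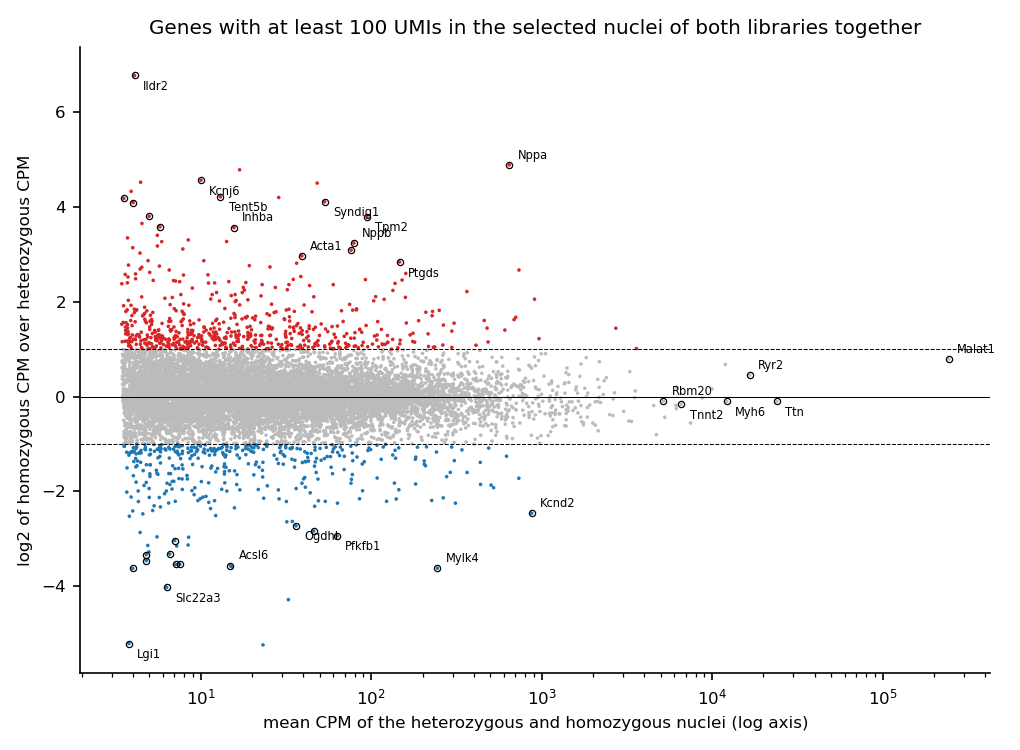
Each point is a gene with at least 100 UMIs: the mean CPM of heterozygous and homozygous nuclei (horizontal, log axis) against the log2 ratio of homozygous to heterozygous CPM (vertical). Red points are at least 2-fold higher and blue points at least 2-fold lower in homozygous nuclei; circled genes are the 15 highest and 15 lowest by the ranking rule, together with Malat1, Tnnt2 and the genes of the rule, which lie between the dashed 2-fold lines.

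The 15 genes highest and the 15 lowest were ranked by the bound of the ratio's interval nearest to 1, so that genes with few UMIs rank lower. The highest included genes of the natriuretic peptides (Nppa, Nppb), of skeletal muscle forms of sarcomere proteins (Tpm2, Acta1), and genes better known from other tissues (Syndig1, Kcnj6, Ptgds). Among the lowest were a kinase of the myosin light chain family (Mylk4), the potassium channel gene Kcnd2, the cardiac regulator Hopx and enzymes of sugar and fat metabolism (Pfkfb1, Fbp2, Acsl6, Ogdhl). For all 30, the homozygous value was outermost of the 4 libraries. The ranking picked genes by the distance of the homozygous from the heterozygous value, so this order is in part set by that choice. In 11 of the 15 highest and 11 of the 15 lowest, the heterozygous value lay on the homozygous side of WT. For several of these the interval of the heterozygous to WT ratio includes 1, as for Nppb [0.872 to 1.29] and Slc9a2 [0.686 to 1.19]. For others, such as Tpm2 and Hopx, it does not. The share of all tested genes with either order was not counted.

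**Figure D3:**
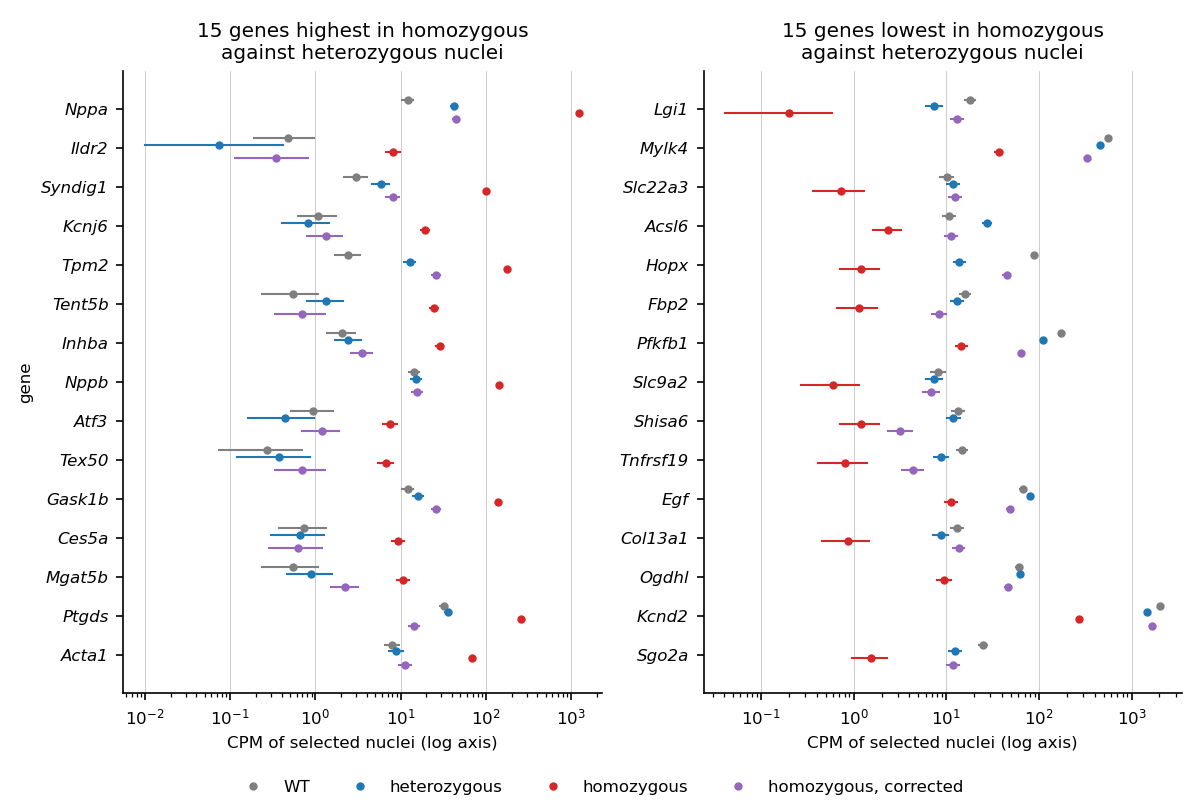
CPM in the selected nuclei of the 4 libraries (log axis) for the 15 genes highest and the 15 lowest in homozygous against heterozygous nuclei; points are the values of 1 library each and bars are 95% Poisson intervals of counting error. For each gene the homozygous point stands apart from the other 3.

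Stress and fetal genes were higher as a group. Of the 12 tested members of the list, 9 were at least 2-fold higher, none was at least 2-fold lower, and the median log2 ratio was 1.33, beside 0.03 over all genes. In endothelial-gene nuclei 8 of 9 tested members were also at least 2-fold higher, and in fibroblast-gene nuclei 7 of 11. Nppa encodes atrial natriuretic peptide, a hormone of atrial muscle that the fetal ventricle also makes (ENSMUSG00000041616, GRCm38 chr4:148000722-148002079, plus strand). Its level was 12.01 CPM in WT, 42.1 in heterozygous, 1249 in homozygous and 44.1 in corrected nuclei. That is a 29.7-fold [27.3 to 32.3] higher level in homozygous than in heterozygous nuclei, and the other 3 libraries were all below 50 CPM.

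Nppa transcripts were also found in nuclei that are not muscle. In the homozygous library they reached 809 CPM in endothelial-gene and 543 in fibroblast-gene nuclei, against 23.8 CPM in endothelial-gene and 16.1 in fibroblast-gene nuclei of the heterozygous library. In nuclei thinned to 1000 UMIs, 48.7% [46.9 to 50.5] of homozygous cardiomyocyte nuclei had at least 1 Nppa UMI, close to 46.1% [43.5 to 48.7] of endothelial-gene and above 33.2% [31.7 to 34.8] of fibroblast-gene nuclei. The share of cardiomyocyte nuclei with 1 UMI was therefore near that of nuclei that should lack the gene. At least 3 UMIs were found in 10.4% of the thinned homozygous and 0.162% of the thinned heterozygous cardiomyocyte nuclei. The 3-UMI share is not set beside that of other nuclei here, and the part of free RNA in it was not tested.

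Nppb, the gene of brain natriuretic peptide (ENSMUSG00000029019, GRCm38 chr4:147985788-147987205, plus strand), lies next to Nppa on the same strand. It stood at 14.2 CPM in WT, 15.1 in heterozygous, 143 in homozygous and 15.4 in corrected nuclei, so the homozygous level was 9.46-fold [8.19 to 10.97] higher. Here the share of thinned nuclei with a UMI was 10.1% [9.0004 to 11.2] in homozygous cardiomyocyte nuclei, above 3.83% [2.902 to 4.94] in endothelial-gene nuclei, and 1.41% [0.987 to 1.96] in heterozygous cardiomyocyte nuclei. WT, heterozygous and corrected nuclei were alike for this gene, and homozygous nuclei stood apart.

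Acta1, the skeletal form of alpha-actin, was at 7.96, 8.86, 69.4 and 11.3 CPM in WT, heterozygous, homozygous and corrected nuclei, a 7.84-fold [6.48 to 9.55] higher homozygous level. Its homozygous levels of 45.1 CPM in endothelial-gene and 26.1 in fibroblast-gene nuclei were lower by less than 3-fold. Ankrd1, a stretch-responsive ankyrin repeat protein that binds titin, stood at 547 CPM in WT, 1465 in heterozygous, 3985 in homozygous and 858 in corrected nuclei. This was 2.72-fold [2.68 to 2.76] higher than the heterozygous level, and the heterozygous level was already above WT and corrected nuclei. Ccn2, which encodes the matricellular protein also called connective tissue growth factor, was at 8.03 CPM in WT, 9.08 in heterozygous, 63.97 in homozygous and 6.32 in corrected nuclei. In the homozygous library Ccn2 was higher in other nuclei, at 102 CPM in endothelial-gene and 271 in fibroblast-gene nuclei.

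Of the remaining members, 4 were at least 2-fold higher and 3 lay between the 2-fold lines. Mybpc2, the fast skeletal form of myosin-binding protein C, had 6.01, 11.1, 53.3 and 14.6 CPM in that order of libraries, a log2 ratio of 2.26. Xirp2, a repeat protein of the intercalated disc, stood at 640.1, 578, 1351 and 545 CPM and Fhl1, a LIM-domain protein of titin's spring region, at 45.2, 36.3, 79.9 and 38.7 CPM. Ccn1, also matricellular, was at 17.8, 19.7, 43.5 and 21.6 CPM. The last 3 members were Flnc, Des and Myh7, with log2 ratios of 0.87, 0.78 and 0.27. Myh7, the fetal and slow myosin heavy chain of mouse ventricle, stood at 339 CPM in WT, 275 in heterozygous, 332 in homozygous and 335 in corrected nuclei, so the homozygous value was close to WT and corrected nuclei and the heterozygous one was the lowest. Myh7 overlaps the noncoding RNA Mhrt on the opposite strand, which stood at 2728, 2835, 2181 and 2493 CPM. The strand of counting is not given, so reads of the overlap cannot be told apart.

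The upstream sequences of genes in this group are shown because the members were higher together and because TEAD and SRF, the factors that bind M-CAT elements and CArG boxes, are known for driving muscle stress genes. Promoter windows came from RefSeq (GRCm38.p6), 250 bases before to 50 after each start, and 11 of the 12 tested members matched. The M-CAT core CATTCC, read on both strands, was in a window of 7 of these 11 (Acta1, Ankrd1, Ccn1, Flnc, Mybpc2, Myh7 and Nppb), beside 14.7% of all 32851 windows. A CArG box, read on both strands, was in windows of 2 members (Acta1 and Fhl1) and of Actc1, the cardiac alpha-actin, beside 1.63% of all windows. Some members have more than 1 window and were counted when any of these matched, while the percentages count single windows. The members also come from a list chosen with earlier results of these data known. The counts and percentages are therefore no test of enrichment. The motifs do not overlap in the windows shown, and a match is a description of letters only. Nppa had neither motif in its window. The 150 bases before the start follow, 5′ to 3′ in the direction of the gene, with M-CAT cores (CATTCC, or GGAATG on the other strand) and CArG boxes in capitals.
Nppb chr4:147985750-147985899 plus strand: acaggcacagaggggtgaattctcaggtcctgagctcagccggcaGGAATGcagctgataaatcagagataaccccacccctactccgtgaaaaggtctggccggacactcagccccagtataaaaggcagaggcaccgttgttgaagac
Acta1 chr8:123894776-123894925 minus strand: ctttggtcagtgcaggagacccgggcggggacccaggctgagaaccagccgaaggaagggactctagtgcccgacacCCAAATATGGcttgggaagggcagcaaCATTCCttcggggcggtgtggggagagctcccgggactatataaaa
Ankrd1 chr19:36119845-36119994 minus strand: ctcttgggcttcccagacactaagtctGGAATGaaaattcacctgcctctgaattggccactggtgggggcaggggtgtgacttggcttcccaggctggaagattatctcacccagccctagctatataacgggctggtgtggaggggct
Actc1 chr2:114052876-114053025 minus strand: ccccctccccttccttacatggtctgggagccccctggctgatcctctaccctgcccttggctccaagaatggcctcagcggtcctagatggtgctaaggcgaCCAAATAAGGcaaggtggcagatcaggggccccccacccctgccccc
Fhl1 chrX:56779533-56779682 plus strand: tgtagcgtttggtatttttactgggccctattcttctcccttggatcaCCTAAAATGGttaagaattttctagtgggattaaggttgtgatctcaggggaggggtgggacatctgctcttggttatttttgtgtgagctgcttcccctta

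In the Nppb window the M-CAT core begins 105 bases before the start, and in Acta1 46 bases before, with the CArG box at 73 bases before. The Ankrd1 core shown begins 123 bases before the start, and another, outside the stretch shown, 210 bases before. The CArG boxes of Actc1 and Fhl1 begin 47 and 102 bases before their starts. Flnc, with a core 1 base before the start in one window and 104 bases before in the other, had a log2 ratio of 0.87. Nppa, the highest member, had neither motif in its window. Whether the motifs have a part in the differences was not tested.

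Thin filament genes were uneven. Of 17 tested members, 4 were at least 2-fold higher and none lower, with a median log2 ratio of 0.36. Tpm2, the beta-tropomyosin of slow and fetal muscle (ENSMUSG00000028464, GRCm38 chr4:43514711-43523765, minus strand), stood at 2.43 CPM in WT, 12.7 in heterozygous, 176 in homozygous and 25.99 in corrected nuclei. The homozygous level was 13.9-fold [11.9 to 16.3] higher than the heterozygous level, and the heterozygous level was itself 5.22-fold [3.63 to 7.71] that of WT. Unlike Nppa, Tpm2 stayed low in other nuclei of the homozygous library, at 17.7 CPM in endothelial-gene and 19.9 in fibroblast-gene nuclei.

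Tnnc1, troponin C of heart and slow muscle, followed another order of libraries. It was at 733 CPM in WT, 333 in heterozygous, 883 in homozygous and 653 in corrected nuclei, so the heterozygous level was the lowest and the homozygous level 2.65-fold [2.56 to 2.74] higher than it, but only modestly above WT. Tnnc1 overlaps Nisch on the opposite strand, and the strand of counting is not given in the sources used here. Actc1 stood at 422, 301, 669 and 344 CPM in WT, heterozygous, homozygous and corrected nuclei, a 2.22-fold [2.14 to 2.31] higher homozygous level. Troponin T (Tnnt2), troponin I (Tnni3) and nebulette (Nebl) had log2 ratios of -0.16, -0.49 and -0.34, while alpha-tropomyosin (Tpm1) was at 0.36.

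At the Z-disc, 5 of 20 tested members were at least 2-fold higher and none was at least 2-fold lower, and the median log2 ratio was 0.73. Pdlim3, a PDZ-LIM protein that binds alpha-actinin, was at 63.6 CPM in WT, 129 in heterozygous, 599.7 in homozygous and 144 in corrected nuclei. The homozygous level was 4.65-fold [4.42 to 4.902] higher than the heterozygous level, which was in turn 2.03-fold [1.87 to 2.196] that of WT. Enah, an actin filament elongation factor that RBM20 is known to regulate by splicing, reached 289.9, 336, 1074 and 376 CPM in that order, so homozygous nuclei were 3.19-fold [3.09 to 3.301] higher. Synpo2l, an actin-binding Z-disc protein, was at 52.1, 49.4, 127 and 46.9 CPM, and Myot, myotilin, stood at 25.2, 19.04, 53.8 and 24.4 CPM.

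Sorbs2, an adaptor of the Z-disc and intercalated disc, just passed the 2-fold line with 2221, 2379.8, 4814 and 2695 CPM. Csrp3 (muscle LIM protein), Flnc and Pdlim5 stayed under it at log2 ratios of 0.93, 0.87 and 0.82. Alpha-actinin-2 (Actn2) was at 0.51. On the other side of 0 were Palld, Tcap (telethonin) and Fhod3, at -0.44, -0.57 and -0.31.

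In the thick filament and M-band, 1 of 15 tested members was at least 2-fold higher and 1 at least 2-fold lower. Over all tested genes the shares were 5.01% and 3.2%. The list's median log2 ratio of 0.01 was on either side of 0 under the scalings tried. Mylk4, a member of the myosin light chain kinase family with high levels in heart (ENSMUSG00000044951, GRCm38 chr13:32700834-32783954, minus strand), was at 551 CPM in WT, 452 in heterozygous, 36.7 in homozygous and 327 in corrected nuclei. Its homozygous level was 12.3-fold [11.3 to 13.4] lower than the heterozygous level. Mylk3, the cardiac myosin light chain kinase that phosphorylates the regulatory light chain, was just short of the 2-fold line, 1.997-fold [1.92 to 2.08] lower, with 656, 534, 268 and 538 CPM. Mylk2, the skeletal kinase, had 25 UMIs in heterozygous and 95 in homozygous nuclei, or 1.85 CPM in heterozygous and 6.31 in homozygous nuclei.

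Among the other tested members of the thick filament and M-band list, none differed 2-fold. Mybpc2 and Myl4, both at least 2-fold higher, are not on that list. Myom1, the M-band protein myomesin-1 and a known RBM20 splice target, stood at 1406, 1634, 2724 and 1784 CPM, 1.67-fold [1.64 to 1.695] higher. Myl2, the ventricular regulatory light chain that Mylk3 acts on, was at 1206, 974, 782 and 1147 CPM. Myl3 and Mybpc3 had log2 ratios of 0.02 and 0.26.

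Genes that RBM20 is reported to splice had a lower median than the Z-disc list. A sum of 3′ counts does not show exon use, so these values say nothing of splicing. Of 22 tested members, 3 were at least 2-fold higher and none lower, with a median log2 ratio of 0.18. The 3 were Pdlim3, Enah and Rtn4, a protein of the endoplasmic reticulum, which was at 56.6, 62.4, 167 and 74.6 CPM in WT, heterozygous, homozygous and corrected nuclei. Rtn4 was higher in other nuclei of the homozygous library, at 307 CPM in endothelial-gene and 361 in fibroblast-gene nuclei. Camk2d, the main calcium and calmodulin kinase of the heart, stood at 1026, 1213, 1675 and 1427 CPM, and Cacna1c, the L-type calcium channel, at 8995, 8831, 8666 and 11217 CPM. Ldb3 and Trdn had log2 ratios of 0.40 and 0.08.

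Splicing regulators other than Rbm20 were mostly a little above heterozygous values. Of 24 tested members, 18 were above the median of all genes and the list's median was 0.21. None was 2-fold higher and 1 was 2-fold lower, beside 5.01% and 3.2% of all tested genes. That one was Rbfox1, a muscle and brain splicing factor, at 985 CPM in WT, 1128 in heterozygous, 342 in homozygous and 1234 in corrected nuclei. Its homozygous level was 3.299-fold [3.196 to 3.41] lower, and in endothelial-gene nuclei it was also lower, at 134 CPM in heterozygous and 61.5 in homozygous nuclei. In fibroblast-gene nuclei the order was the other way, with 381 and 533 CPM. Hnrnpl was at -0.57, while Celf2, Srsf7 and Rbm24 were at 0.53, 0.46 and 0.34 on the log2 scale.

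Genes of calcium release and uptake had a median log2 ratio of 0.08, which turned to -0.07 with Malat1 in the total. Of 27 tested members, 2 were at least 2-fold higher and none lower, beside 5.01% and 3.2% of all tested genes. Casq1, the skeletal form of the calcium store protein calsequestrin, was at 10.8 CPM in WT, 46.8 in heterozygous, 221 in homozygous and 68.9 in corrected nuclei. The homozygous level was 4.73-fold [4.34 to 5.16] higher than the heterozygous, and both mutant libraries were above WT. Casq2, the cardiac form, stood at 314, 369, 656 and 501 CPM, 1.78-fold [1.72 to 1.84] higher. Cacna1g, a T-type calcium channel of pacemaker and fetal muscle, was at 34.9, 65.5, 150.1 and 78.04 CPM.

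Uptake genes lay below 0. Atp2a2, which pumps calcium back into its store (SERCA2), had 3877 CPM in WT, 2673 in heterozygous, 1622 in homozygous and 3588 in corrected nuclei, a homozygous level 1.65-fold [1.62 to 1.68] lower than the heterozygous. Its regulator phospholamban (Pln) had a log2 ratio of -0.37 and the store protein Hrc one of -0.55. Slc8a1, the sodium-calcium exchanger, was at 0.20.

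Potassium channel genes had 4 of 21 tested members at least 2-fold lower and 2 at least 2-fold higher, with a median log2 ratio of -0.21. In endothelial-gene nuclei 3 of 8 tested members were at least 2-fold lower and in fibroblast-gene nuclei 4 of 10. Kcnd2 encodes the pore of the fast transient outward current that repolarizes mouse ventricle (ENSMUSG00000060882, GRCm38 chr6:21215503-21729805, plus strand). It stood at 2017 CPM in WT, 1480.3 in heterozygous, 269 in homozygous and 1642 in corrected nuclei, a homozygous level 5.51-fold [5.33 to 5.701] lower than the heterozygous. The partner genes Kcnip2 and Kcnd3 were lower by less, at log2 ratios of -0.75 and -0.81.

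The inward rectifiers were split. Kcnj3, a subunit of the acetylcholine-gated channel, was at 769.8, 686, 190.2 and 515 CPM in the order WT, heterozygous, homozygous and corrected, 3.61-fold [3.46 to 3.76] lower. Kcnj6, which encodes another subunit of that channel family, was among the 15 highest genes, with 1.08 CPM in WT, 0.812 in heterozygous, 19.3 in homozygous and 1.32 in corrected nuclei. Only 11 UMIs were counted in heterozygous against 290 in homozygous nuclei, a 23.7-fold [13.1 to 48.1] higher level. It overlaps the gene model Gm41505 on the opposite strand, whose log2 ratio was 4.51. Kcnj2, the main strong inward rectifier, had a log2 ratio of -1.07.

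The other called members were low. Kcnv2, a silent subunit, had 88 UMIs in heterozygous and 17 in homozygous nuclei, a log2 ratio of -2.52. Kcne1, a subunit of the slow delayed rectifier, had 16 and 107 UMIs, and stood at 1.01, 1.18, 7.11 and 6.46 CPM, so that the corrected value was close to the homozygous one. Kcnq1, its pore subunit, was at 0.20.

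Sodium channels, pacemaker channels and junction genes had a median log2 ratio of -0.33. Of 18 tested members, 1 was at least 2-fold lower and none higher, beside 3.2% and 5.01% of all tested genes. Scn4a, the skeletal muscle sodium channel, was at 19.2, 22.7, 5.71 and 19.2 CPM, 3.98-fold [3.12 to 5.11] lower in homozygous nuclei. Fgf13, a protein that binds sodium channels, was at 5034, 5988, 3434 and 5548 CPM. Gja1, the gap junction protein connexin 43, stood at 354 CPM in WT, 357 in heterozygous, 205 in homozygous and 483 in corrected nuclei.

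G protein and cyclic nucleotide genes had 5 of 31 tested members at least 2-fold lower and 1 at least 2-fold higher, with a median log2 ratio of -0.07. Adra1a, the alpha-1A adrenergic receptor, was at 262 CPM in WT, 231 in heterozygous, 59.2 in homozygous and 203 in corrected nuclei. Homozygous nuclei were 3.903-fold [3.62 to 4.21] lower than heterozygous nuclei. Rgs7, which speeds the off-switch of inhibitory G proteins, was at 132, 59.3, 9.57 and 50.4 CPM, 6.204-fold [5.19 to 7.46] lower, and both mutant libraries lay below WT. Fibroblast-gene nuclei carried more Rgs7 and differed in the same direction, with 137 CPM in the heterozygous and 46.4 CPM in the homozygous library. The phosphodiesterases Pde7a and Pde1c, which degrade cyclic nucleotides, had log2 ratios of -1.32 and -1.26, and Rgs2 one of -1.08.

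Gnao1, the alpha subunit of the G protein Go, was the 1 higher member. It was at 33.7 CPM in WT, 156 in heterozygous, 457 in homozygous and 125 in corrected nuclei, a homozygous level 2.93-fold [2.79 to 3.08] higher than the heterozygous and a heterozygous level 4.62-fold [4.19 to 5.104] that of WT. Fibroblast-gene nuclei also carried Gnao1, at 407 CPM in the heterozygous and 392 CPM in the homozygous library, where the libraries did not differ 2-fold. The beta-1 receptor (Adrb1) and the muscarinic receptor (Chrm2) were at -0.07 and -0.11 on the log2 scale.

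Genes of fatty acid uptake and oxidation were lower in homozygous nuclei as a list, mostly by less than 2-fold. Of 27 tested members, 23 lay below the median of all genes, 3 were at least 2-fold lower and none higher, and the median log2 ratio was -0.55, beside 0.03 over all genes. Ucp3, a mitochondrial carrier of muscle linked to fatty acid load, stood at 125 CPM in WT, 80.4 in heterozygous, 17.5 in homozygous and 72.5 in corrected nuclei, 4.59-fold [4.01 to 5.27] lower in homozygous than in heterozygous nuclei. Slc27a1, a fatty acid transport protein, was at 515, 285, 137 and 294 CPM and Cpt1a, which forms acylcarnitine for entry into mitochondria, at 175, 145, 71.3 and 138 CPM.

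The enzymes of the oxidation cycle showed smaller differences in the same direction. Hadha and Hadhb, the subunits of the trifunctional protein, had log2 ratios of -0.76 and -0.86, and Acadm, the medium-chain dehydrogenase, one of -0.48. Cpt1b, the muscle form of the transferase, was at 300.01, 218, 149 and 227 CPM. The members above 0 were Fabp3, Pdk4, Plin5 and Lpl, at 0.49, 0.39, 0.33 and 0.05. In endothelial-gene and fibroblast-gene nuclei the medians of the list were -0.21 and -0.22.

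Regulators of these genes differed less. None of the 18 tested PPAR, ERR and PGC-1 genes was called in either direction, and the median log2 ratio was -0.20. Ppara, the receptor that drives fatty acid oxidation genes in heart, was at 433, 461, 429.6 and 525 CPM, and the coactivator Ppargc1a at 543, 857, 777 and 808 CPM. Rxra, the partner receptor, was the lowest at -0.98 from 255 and 144 UMIs, and Pparg the highest, at 66.95, 149, 222 and 159 CPM.

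Nuclear-encoded subunits of the respiratory chain were close to heterozygous levels. None of 30 tested members was called, the log2 ratios lay between -0.33 and 0.65, and the median was 0.05, or -0.10 with Malat1 in the total. Cycs, cytochrome c, was the highest with 79.5, 49.6, 77.6 and 59.8 CPM, and Sdhc the lowest, at -0.33.

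In glucose uptake and glycolysis, 1 of 28 tested members was at least 2-fold lower and 1 at least 2-fold higher. Over all tested genes the shares were 3.2% and 5.01%. The list's median was 0.11 and turned to -0.04 with Malat1 in the total. Pfkfb1 makes and degrades fructose 2,6-bisphosphate, a regulator of glycolysis (ENSMUSG00000025271, GRCm38 chrX:150588229-150643878, plus strand). It was at 172 CPM in WT, 112 in heterozygous, 14.5 in homozygous and 64.4 in corrected nuclei, 7.67-fold [6.65 to 8.87] lower in homozygous nuclei, and it overlaps Apex2 on the opposite strand, whose log2 ratio was -2.21. Eno1, the enolase form of most tissues, was at 48.3, 38.01, 77.3 and 44.4 CPM, while Eno3, the muscle form, had a log2 ratio of -0.06. Pfkp, the platelet form of phosphofructokinase, was at 0.79 and Pfkm, the muscle form, at -0.25.

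Among the metabolic genes outside these lists, 4 ranked among the 15 lowest. Acsl6, an acyl-CoA synthetase, was at 10.7 CPM in WT, 27.5 in heterozygous, 2.32 in homozygous and 11.3 in corrected nuclei, 11.8-fold [8.36 to 17.3] lower than in heterozygous nuclei, which here held the highest value of the 4 libraries. Fbp2, the muscle fructose bisphosphatase, had 178 UMIs in heterozygous and 17 in homozygous nuclei and stood at 15.996, 13.1, 1.13 and 8.41 CPM. Ogdhl, a relative of the oxoglutarate dehydrogenase of the citric acid cycle, was at 61.1, 62.9, 9.499 and 46.6 CPM. Slc22a3, an organic cation transporter, had 161 and 11 UMIs, 11.9 CPM in heterozygous and 0.731 in homozygous nuclei.

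Cardiac transcription factors were mostly near 0. Of 25 tested members, 1 was at least 2-fold lower and none higher, beside 3.2% and 5.01% of all tested genes. The list's median was -0.13. Hopx, a homeodomain protein that does not bind DNA and regulates heart growth (ENSMUSG00000059325, GRCm38 chr5:77086988-77115121, minus strand), was at 88.9 CPM in WT, 13.9 in heterozygous, 1.196 in homozygous and 44.7 in corrected nuclei. The heterozygous level was 0.156 times [0.133 to 0.182] the WT level, and the homozygous level, from 18 UMIs, was 11.6-fold [7.14 to 20.01] lower again. Tbx5 and Prox1 had log2 ratios of -0.88 and -0.87. Gata4, Mef2c, Tead1 and Srf, by contrast, were at -0.01, 0.08, 0.16 and -0.01. Tead1 stood at 512, 882, 986 and 773 CPM, so both mutant libraries and the corrected one lay above WT.

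The protein folding and degradation list had a median log2 ratio of 0.46 with 23 of 28 tested members above the median of all genes, 1 at least 2-fold higher and none lower. Hspb1, a small heat shock protein, was at 21.8 CPM in WT, 11.4 in heterozygous, 65.9 in homozygous and 12.4 in corrected nuclei, 5.798-fold [4.89 to 6.92] higher in homozygous than in heterozygous nuclei. In endothelial-gene nuclei it stood at 21.6 CPM in the heterozygous and 62.2 CPM in the homozygous library. Cryab, the chaperone that protects titin and desmin, was at 97.3, 91.7, 171 and 82.8 CPM, and Atf6, a sensor of stress in the endoplasmic reticulum, at 288, 409, 681 and 324 CPM. Fbxo32, the muscle ubiquitin ligase atrogin-1, was the lowest member, at -0.92.

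Glucocorticoid-induced genes had 3 of 17 tested members at least 2-fold higher and none lower, with a median of 0.27. Fkbp5, a co-chaperone of the glucocorticoid receptor, was at 21.1 CPM in WT, 94.2 in heterozygous, 324 in homozygous and 38.6 in corrected nuclei, 3.44-fold [3.23 to 3.66] higher than in heterozygous nuclei, which were at 4.48-fold [3.95 to 5.08] the WT level. Other nuclei of the same libraries showed the same order, with 204 CPM in endothelial-gene and 616 in fibroblast-gene nuclei of the heterozygous and 705 CPM in endothelial-gene and 1055 in fibroblast-gene nuclei of the homozygous library. Ddit4 and Cebpd, the others called, were at 3.58, 6.57, 19.1 and 10.1 CPM and 6.21, 9.67, 23.98 and 6.32 CPM in WT, heterozygous, homozygous and corrected nuclei. Both were higher in endothelial-gene than in cardiomyocyte nuclei of either library, and after thinning the log2 ratio of Cebpd was 0.72. In endothelial-gene and fibroblast-gene nuclei the medians of the list were 0.57 and 0.63.

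Clock genes, whose levels follow the time of day, differed between libraries, and the labels give no time of collection. Of 19 tested members, 3 were at least 2-fold lower in homozygous nuclei and none higher, with a median of -0.27. Dbp, a clock output factor, was at 162, 89.6, 29.03 and 40.5 CPM, Hlf at 90.2, 118, 35.2 and 76.6 CPM and Ciart at 36.3, 48.9, 19.6 and 3.96 CPM in the order WT, heterozygous, homozygous and corrected. The core factor Arntl was at 3.98, 3.25, 3.85 and 36.6 CPM, alike in the first 3 libraries and higher in corrected nuclei. Dbp was also lower in homozygous than in heterozygous endothelial-gene nuclei, at 22.6 against 88.1 CPM. The part of the time of collection in other genes was not tested.

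Immediate early genes, which respond to handling as well as to signals, had 3 of 11 tested members at least 2-fold higher and none lower, with a median of 0.80. Atf3 had 6 UMIs in heterozygous and 114 in homozygous nuclei and stood at 0.945, 0.443, 7.57 and 1.18 CPM. Jun was at 36.4, 30.997, 80.2 and 25.2 CPM and Btg2 at 13.97, 17.9, 44.8 and 19.04 CPM. In endothelial-gene nuclei Jun was at 77.2 CPM in the heterozygous and 90.9 CPM in the homozygous library, and Btg2 at 77.5 and 85.1 CPM. Of the 6 abundant noncoding RNAs tested, none was called. Malat1 itself had a log2 ratio of 0.79 and Kcnq1ot1 one of 0.91. The sex-linked list had 1 of 5 tested members at least 2-fold lower, Tsix, at 28.1, 20.4, 9.17 and 15.98 CPM.

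**Figure D4:**
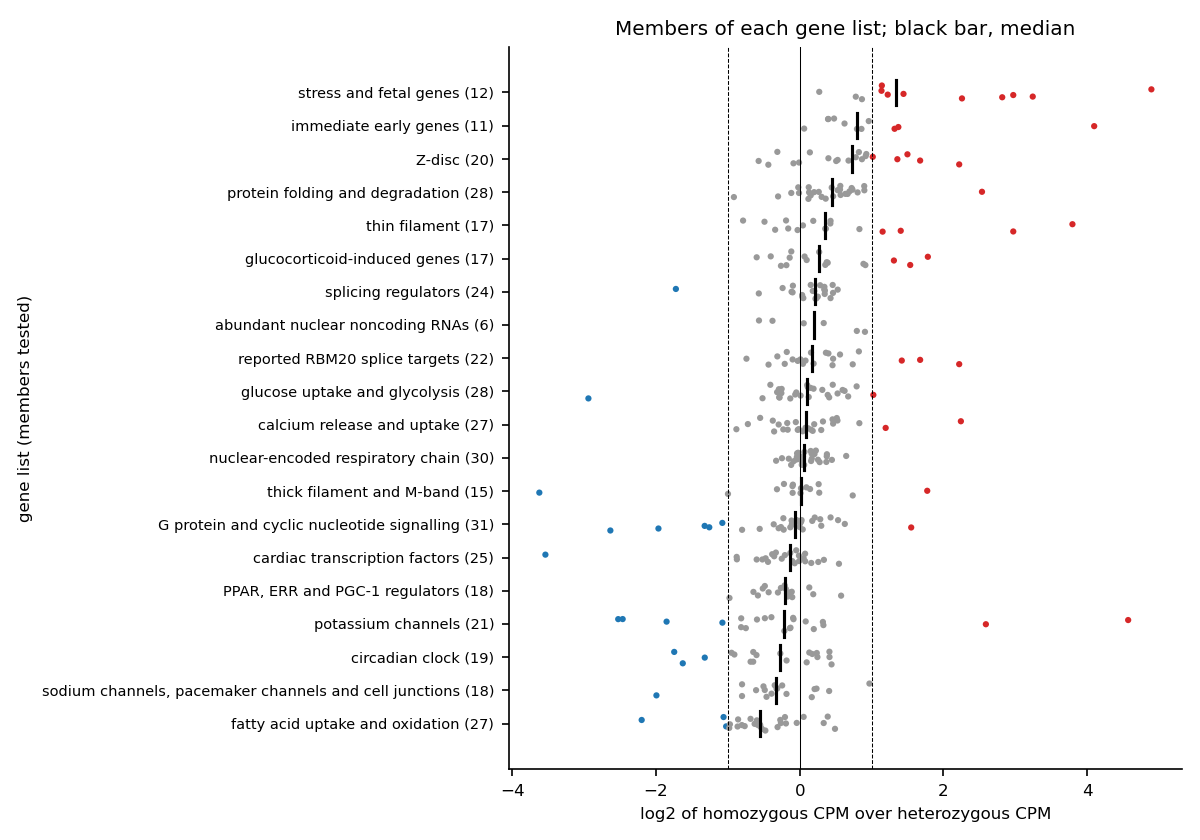
Log2 ratio of homozygous to heterozygous CPM (horizontal) for each tested member of 20 gene lists (vertical, with the number tested); red points are at least 2-fold higher, blue points at least 2-fold lower, and black bars are medians. Medians run from -0.55 for fatty acid uptake and oxidation to 1.33 for stress and fetal genes, and the lists of respiratory chain genes, PPAR, ERR and PGC-1 regulators and noncoding RNAs have no member past a dashed 2-fold line.

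The rest of the 15 highest genes were described under no list above. Syndig1, a transmembrane protein that organizes synapses, was at 2.97 CPM in WT, 5.83 in heterozygous, 101 in homozygous and 8.06 in corrected nuclei, 17.3-fold [13.8 to 21.95] higher than in heterozygous nuclei (ENSMUSG00000074736, GRCm38 chr2:149829211-150004392, plus strand). It stayed at 9.02 CPM in endothelial-gene and 3.996 in fibroblast-gene nuclei of the homozygous library. Ptgds, a prostaglandin D synthase, was at 31.99 CPM in WT, 35.9 in heterozygous, 258 in homozygous and 14.2 in corrected nuclei, 7.17-fold [6.52 to 7.89] higher, and the corrected value was the lowest. Gask1b, a Golgi kinase-like protein, stood at 12.1, 16.02, 137 and 25.8 CPM, but endothelial-gene nuclei carried it at 167 CPM in the heterozygous and 150 CPM in the homozygous library. The homozygous cardiomyocyte level was thus near that of endothelial-gene nuclei, and Gask1b overlaps a gene model that was also higher, Gm36569.

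Inhba, the activin A subunit, was at 2.02, 2.44, 28.9 and 3.47 CPM in WT, heterozygous, homozygous and corrected nuclei, 11.9-fold [8.32 to 17.5] higher. Tent5b, of a family of poly(A) polymerases, was at 0.53996, 1.33, 24.7 and 0.695 CPM. The others rested on few heterozygous UMIs. Ildr2 had 1 UMI in heterozygous and 122 in homozygous nuclei, a ratio of 109.8-fold [19.3 to 4372]. Its homozygous level of 8.10 CPM was near that of fibroblast-gene nuclei, which had 10.6 CPM in the heterozygous and 7.61 CPM in the homozygous library. Mgat5b had 12 and 160 UMIs, Ces5a 9 and 140, and Tex50 5 and 101. Tex50 overlaps Ankrd45 on the opposite strand, whose log2 ratio was 2.16.

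The rest of the 15 lowest genes were at low levels, except Egf. Egf, the epidermal growth factor precursor, was at 67.2 CPM in WT, 80.7 in heterozygous, 11.3 in homozygous and 48.6 in corrected nuclei, 7.14-fold [6.07 to 8.45] lower than in heterozygous nuclei. Lgi1, a secreted leucine-rich protein, had 100 UMIs in heterozygous and 3 in homozygous nuclei, 18.1, 7.38, 0.199 and 12.99 CPM, with a ratio of 37.04-fold [12.3 to 183]. Shisa6, a receptor auxiliary protein, was at 13.4, 11.96, 1.196 and 3.196 CPM, so the corrected value lay between the homozygous and the other values, as it did for Tnfrsf19, a receptor of the tumour necrosis factor family, at 14.8, 8.78, 0.797 and 4.38 CPM. Slc9a2, a sodium-proton exchanger, stood at 8.17, 7.38, 0.598 and 6.88 CPM, Sgo2a at 24.8, 12.5, 1.53 and 11.9 CPM and Col13a1, a membrane collagen, at 13.03, 8.71, 0.864 and 13.6 CPM. Col13a1 was higher in endothelial-gene nuclei, at 35.0 CPM in the heterozygous and 44.5 CPM in the homozygous library.

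Several of these folds depended on which nuclei were taken, mostly for genes with few UMIs. Over the other choices of nuclei and the thinning, 38 values of named genes at least 2-fold apart moved by more than 1.5 times, and all of them kept their direction. Mki67 was among them with 17 heterozygous and 50 homozygous UMIs, too few to be tested. Hopx, at a log2 ratio of -3.54, ranged from -2.65 in nuclei with 0 endothelial and fibroblast UMIs to -5.15 after thinning to 1000 UMIs.

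Thinning brought the log2 ratio of Ildr2 from 6.78 to 4.21, of Kcnj6 from 4.57 to 3.06, of Slc22a3 from -4.02 to -3.11, and of Fbp2 from -3.54 to -2.31. It also brought Pfkfb1 from -2.94 to -2.29, Shisa6 from -3.32 to -2.502 and Ccn2 from 2.82 to 2.18. These genes thus stood closer to the heterozygous level but past 2-fold. Thinning moved others outward, with Syndig1 at 4.92, Tent5b at 4.87, Kcne1 at 3.35 and Ddit4 at 2.21.

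In nuclei with 0 endothelial and fibroblast UMIs, Lgi1 was at -3.46 in place of -5.21, Sgo2a at -2.12 in place of -3.04 and Mylk2 at 1.19 in place of 1.77, while Slc9a2 was at -5.21 in place of -3.63. In nuclei with a cardiomyocyte share from 5%, Col13a1 was at -2.52 in place of -3.33. In that choice Kcnj6 was at 5.71, Ces5a at 5.27, Tex50 at 4.84 and Tnfrsf19 at -4.18, all farther from 0. Mgat5b was at 4.18 without the deepest 5% of nuclei. Postn was at 4.27 with at most 1 UMI of pericyte, smooth muscle, macrophage and lymphocyte markers. That choice did not lower the rule's limit of 3 fibroblast UMIs.

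Nuclei of the same library were then compared one by one, to see how evenly the genes were spread. Each nucleus was thinned to 1000 UMIs, which left out 16 heterozygous and 21 homozygous nuclei. The thinned UMIs include Malat1, whose larger share in homozygous nuclei leaves fewer for other genes. Kcnd2 had a UMI in 51.1% [49.1 to 53.1] of heterozygous and 13.7% [12.4 to 14.96] of homozygous nuclei, and in 77.8% and 30.96% before thinning. Endothelial-gene nuclei showed 12.02% [10.4 to 13.8] and 1.64% [1.05 to 2.43], so the homozygous share stayed above that of endothelial-gene nuclei of its own library. For Mylk4 the shares were 26.9% [25.2 to 28.7] and 2.21% [1.71 to 2.81], with 3.91% [2.98 to 5.04] and 0.205% [0.0423 to 0.598] in endothelial-gene nuclei.

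Genes that were higher were found in more nuclei. Pdlim3 had a UMI in 9.01% [7.91 to 10.2] of heterozygous and 33.6% [31.9 to 35.3] of homozygous nuclei, Enah in 23.6% [21.9 to 25.3] and 50.7% [48.9 to 52.5], and Casq1 in 3.88% [3.15 to 4.72] and 14.8% [13.6 to 16.2]. In endothelial-gene nuclei of the homozygous library the shares were 10.3% [8.803 to 11.99] for Pdlim3, 16.1% [14.2 to 18.03] for Enah and 2.94% [2.13 to 3.94] for Casq1. Tpm2 was in 1.496% [1.06 to 2.06] and 10.8% [9.71 to 11.99], beside 1.84% [1.22 to 2.67] in homozygous endothelial-gene nuclei. Before thinning, Tpm2 had a UMI in 5.26% of heterozygous and 36.1% of homozygous nuclei, so most homozygous nuclei showed none at this depth. For Acta1 the thinned homozygous share of 5.1003% [4.33 to 5.96] lay near that of endothelial-gene nuclei, 4.17% [3.202 to 5.32]. For Fkbp5 the homozygous share of 21.6% [20.1 to 23.2] was below the 39.96% [37.4 to 42.5] of endothelial-gene nuclei.

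**Figure D5:**
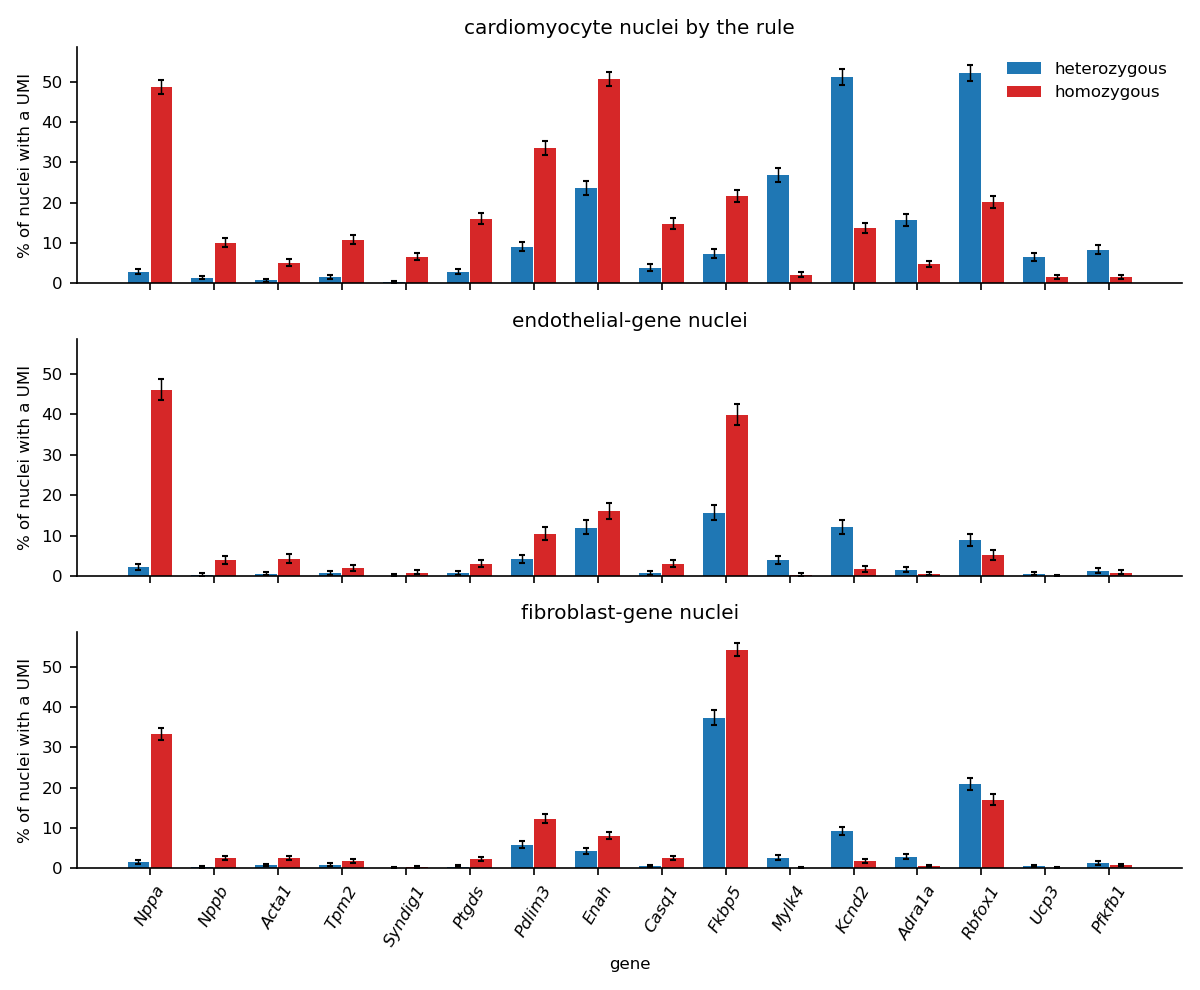
Percentage of nuclei with at least 1 UMI of each gene (vertical) after thinning every nucleus to 1000 UMIs, in heterozygous (blue) and homozygous (red) libraries, for cardiomyocyte nuclei by the rule (top), endothelial-gene nuclei (middle) and fibroblast-gene nuclei (bottom); bars start at 0 and whiskers are exact 95% binomial intervals. In the homozygous library Nppa reaches 46.1% of endothelial-gene nuclei beside 48.7% of cardiomyocyte nuclei, and Fkbp5 is more frequent in both other classes, while Tpm2, Syndig1, Ptgds, Enah, Casq1, Mylk4, Kcnd2 and Adra1a are most frequent in cardiomyocyte nuclei.

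Some markers of other cell types differed between the libraries in the selected nuclei. The 10 endothelial markers tested had a median log2 ratio of -0.10, none was called, and their summed level was 125 CPM in heterozygous and 111 CPM in homozygous nuclei, beside 145 in WT and 150 in corrected nuclei. For fibroblast markers, 5 of 10 tested were at least 2-fold higher and none lower, with sums of 213, 266, 488 and 308 CPM in WT, heterozygous, homozygous and corrected nuclei. Those called were Col3a1, Col1a1, Col1a2, Mgp and Lum, and Col1a2 was part of the rule's limit. All 3 tested markers of activated fibroblasts were at least 2-fold higher, with sums over the list of 20.5, 26.9, 102 and 37.1 CPM. Postn, the matricellular protein periostin, was at 2.66 CPM in heterozygous and 25.7 in homozygous nuclei, against 38.1 and 525 CPM in fibroblast-gene nuclei of the same libraries. The defining marker Pdgfra was at 5.805, 6.05, 10.03 and 11.3 CPM.

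Of the macrophage markers, 1 of 10 tested was at least 2-fold higher, with sums of 281, 232, 273 and 345 CPM. The pericyte list had 1 of 5 tested members higher (Cspg4), the endocardial list 1 of 2 (Npr3, at 7.09, 6.35, 25.9 and 7.16 CPM) and the lymphatic list 1 of 4 lower (Reln). The endocardial markers summed to 663, 706, 942 and 928 CPM, most of it from Hmcn1 at 654, 696, 911 and 918 CPM, beside 1260.3 and 1243 CPM in endothelial-gene nuclei of the heterozygous and homozygous libraries. No tested member was called among 2 smooth muscle, 1 lymphocyte, 2 Schwann cell and 4 conduction system markers, and no mesothelial marker had enough UMIs to be tested. In the cell cycle list, 1 of 2 tested members was lower (Cenpf). The atrial list had Nppa and Myl4 tested, both higher. The part of other cells' RNA in the called genes was not tested. Nuclei with 0 endothelial and fibroblast UMIs gave 360 higher and 268 lower of 8697 genes.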

How the data were processed

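Single-nucleus RNA was measured in 4 libraries, 1 per genotype, each of 3 pooled hearts. The authors deposited raw UMI counts per gene and barcode as 10x matrices of 32287 features, 2 of them added to the mouse genes. Counts were made with Cell Ranger, version 4.0.0 per the file headers and 6.1.1 per the submitters' processing notes, which also name Seurat 4 and the builds mm10 and GRCm38. The barcode filter, the use of intronic reads and the strand of counting are not given in the sources used here, and reads of overlapping genes cannot be told apart: 33 of the 118 genes named by the rule overlap another tested gene on the opposite strand.

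Nuclei were selected by the rule in the report. Their counts were summed per library and scaled to CPM over genes other than mitochondrial genes and Malat1. A ratio of CPM has an exact conditional binomial 95% interval, and shares of nuclei have exact Clopper-Pearson intervals after thinning to 1000 UMIs (seed 1); all intervals cover counting error only. Called means at least 2-fold, among genes with at least 100 UMIs in both libraries together. With 1 library per genotype no significance test was possible. Endothelial-gene and fibroblast-gene nuclei had at least 4 UMIs of the respective set and under 1% of the rule's cardiomyocyte transcripts; their values stand beside those of cardiomyocyte nuclei as a background, which can hold free RNA as well as those cells' own. No doublet caller was run; the rule's limits removed 441 heterozygous and 501 homozygous nuclei with more than 3 endothelial or fibroblast UMIs.

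The rule, the 36 gene lists and the tests were chosen with earlier results of these data known, and 4 list genes were not found under a unique symbol. Named genes were the 15 highest and the 15 lowest by the bound of the ratio's interval nearest to 1 (100 UMIs or more where the gene was higher; gene models without a name, genes of mitochondria and haemoglobins, 6 listed genes linked to sex, and genes under 0.2 of their CPM in other nuclei were left out), which passed over 6 higher and 6 lower genes, and up to 4 members of each functional or handling list by absolute log2 ratio. Other genes were named after their values were seen. The ratio computation was tested on simulated data. Software was Python 3.11.15, numpy 2.4.6, scipy 1.17.1, pandas 2.3.3, matplotlib 3.10.9, and R 4.3.3 with edgeR 4.0.16 for the TMM scaling, an alternative only. Other alternatives were scaling, the UMI minimum, the nuclei taken and thinning.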

Additional observations from a re-analysis of the deposited data

Results flagged for a closer look

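The features ABE_C and ABE_N, which are not mouse genes, had 8542 UMIs in the corrected library and 0 in each of the other 3 libraries. They were not used in any comparison, and were noted because a signal stood in data outside the main measurement.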

How the results depend on the processing

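No paired analysis was possible because there is 1 library per genotype, and no replicate could be left out for the same reason. Against 580 higher and 371 lower of 11582 tested genes, keeping Malat1 in the total gave 426 and 561. A minimum of 20 UMIs gave 1113 and 709 of 15286 genes, and one of 500 gave 251 and 159 of 6851. Nuclei with a cardiomyocyte share from 5% gave 337 and 254 of 8447 genes. Nuclei with 0 endothelial and fibroblast UMIs gave 360 and 268 of 8697, and nuclei thinned to 1000 UMIs 214 and 166 of 6014. Part of the change in these counts is thus a change in the number of genes tested. Leaving out genes at a higher level in other nuclei, an alternative chosen after seeing the data, gave 267 and 228 of 3760. A gene passes that choice through the library where it is higher, so this count supports nothing. The other alternatives gave counts within 1.5 times. Among 1730 values of named genes under the alternatives, 238 moved beyond their counting interval. No gene at least 2-fold apart in the main comparison changed direction. For genes under 2-fold a change of direction was not counted. For genes at least 2-fold apart, 38 values moved by more than 1.5 times, among them that of Mki67, which had too few UMIs to be tested. Of the 38, Cebpd after thinning fell under 2-fold. What these values do not show is variation between hearts or libraries, which 1 library per genotype cannot give, and genes under 100 UMIs were not examined here.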

Other observations

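Some pairs of genes adjacent among the tested genes differed together. Such pairs can lie far apart, as S100a6 and S100a11 do with a gap of 2896306 bases. Of 11556 pairs of adjacent tested genes, 72 were both at least 2-fold higher (0.623%), 34 both at least 2-fold lower (0.294%) and 29 in opposite directions. Single genes were called higher in 5.01% and lower in 3.2%, and the pair counts for genes that differ independently were not worked out. Of the pairs that differed the same way, 28 overlapped and 43 lay on the same strand. Reads of overlapping genes cannot be told apart here. Nppb and Nppa, whose bodies are 13516 bases apart, are one such pair.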
